A study of Homo sapiens with 15 samples.

Results

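Wild-type ATGL was returned to ATGL-knockout prostate cancer cells, and the gene expression of the resulting line (KO_WT) was compared with that of the knockout it was made from (KO). The comparison takes the 3 libraries titled as the knockout with wild-type ATGL and the 3 libraries titled as the knockout, which are 6 of the 15 libraries of the study, and all gene entries of the deposited count tables. The cells were C4-2, a castration-resistant prostate cancer line derived from LNCaP. All lines were kept in 5 mM glucose and 5% dialyzed serum, and poly(A) RNA was sequenced from directional libraries. KO carried the ATGL knockout alone, KO_WT carried the same knockout with wild-type ATGL added back, and 2 further addback lines carried the knockout with the S47A protein (KO_S47A), described by the submitters as lipolytically inactive, or the S404A protein (KO_S404A). A scramble control (Scramble) kept its own ATGL. The submitters describe the lines as isogenic. Each genotype is 1 line, and the labels do not say how the lines were selected or what drives the added ATGL, so an effect of ATGL and a difference between separately grown lines cannot be told apart. Separate cultures are not stated for the 3 libraries of a line, and p-values then reflect the scatter of these libraries alone, which may be technical.

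ATGL, adipose triglyceride lipase, is the product of PNPLA2 and removes the first fatty acid from triglyceride stored in lipid droplets. Hormone-sensitive lipase (LIPE) and monoacylglycerol lipase (MGLL) take the next steps, ABHD5 activates ATGL and G0S2 and HILPDA inhibit it. The fatty acids set free can be oxidised in mitochondria, built into membranes, or act as ligands of the PPAR nuclear receptors, whose targets include genes of fatty acid oxidation.

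PNPLA2 was the gene with the lowest p in this comparison. Its TMM-scaled CPM, the share of a library's counts scaled to a common size, was 13.0, 11.9 and 9.11 in KO libraries 1, 2 and 3, and 213, 207 and 241 in the KO_WT libraries. The groups did not overlap, and every KO_WT library held more than 15 times the level of every KO library. These levels rest on 632, 658 and 487 counts in KO and on 10165, 8638 and 11302 counts in KO_WT. PNPLA2 rose by a log2 fold change of 4.28 (SE 0.22, 95% interval 3.81 to 4.75, edgeR adjusted p = 3.49e-07), or 19.4-fold between the group means. The addback did not bring the transcript to the control level but past it: Scramble held 48.9 ± 4.76 CPM (SD, n = 3) against 220 ± 18.1 in KO_WT, a log2 fold change of 2.17 (adjusted p = 2.71e-05 by the same test). KO held 11.3 ± 1.99 CPM, so PNPLA2 counts were lower but not at 0 in the knockout (log2 fold change against Scramble -2.11, adjusted p = 3.54e-05). The counts do not separate transcripts of the edited gene from those of the added one.

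Counts in genes totalled 47325563 to 55731053 in the KO libraries and 41521069 to 47895553 in the KO_WT libraries. The library numbered 3 stood apart clearly in KO_WT and less so in KO. In KO_WT, libraries 1 and 2 differed by a chi-square of 8.11 per degree of freedom, while library 3 differed from them by 139 and 98.2. In KO library 3 differed from library 1 by 62.0 and from library 2 by 46.98, and libraries 1 and 2 differed nearly as much, by 40.004. Genes of DNA replication had a higher median in library 3 than in libraries 1 and 2, by 0.51 on the log2 scale in KO and by 1.04 in KO_WT, and genes of the ATF4 response a lower one, by -0.72 and -1.30. Results are therefore given for all libraries, with the library number as a block in the model, and for libraries 1 and 2 alone.

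Beside PNPLA2, 3 genes passed the test, at a Benjamini-Hochberg adjusted p under 0.05 in edgeR's quasi-likelihood test over 14246 genes. WLS and CCDC85A were higher in KO_WT and PCDH7 was lower. In all 3 the mean level of KO_WT lay between those of KO and Scramble.

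WLS encodes Wntless, the carrier that takes Wnt proteins to the cell surface for secretion. Its level was 6.12, 5.26 and 5.55 CPM in KO and 14.7, 12.5 and 10.9 CPM in KO_WT. The lowest KO_WT library was above the highest KO library. WLS rose by 1.17 on the log2 scale (SE 0.12, interval 0.92 to 1.43, edgeR adjusted p = 0.000964), 2.25-fold between the means, and the call is lost when only the 6 libraries of both lines are fitted (adjusted p = 0.107). It was 20.9 ± 0.133 CPM in Scramble (SD, n = 3), so KO_WT remained below the control (log2 fold change -0.72, adjusted p = 0.00334), and KO was further below it (-1.89). The other addback lines held 7.74 ± 0.347 CPM with S47A and 11.6 ± 0.832 CPM with S404A.

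PCDH7, a protocadherin of the cell surface, moved the other way. It stood at 58.61, 59.99 and 58.72 CPM in KO and at 21.9, 19.9 and 23.7 CPM in KO_WT. The libraries of each group lay close together and far from those of the other. PCDH7 fell by 1.44 on the log2 scale (SE 0.18, interval -1.83 to -1.04, edgeR adjusted p = 0.00763). Scramble had the lowest level, 11.5 ± 3.72 CPM (SD, n = 3), and KO_WT stayed above it (log2 fold change 0.92, adjusted p = 0.0123), against 2.36 for KO minus Scramble. KO_S404A held 30.3 ± 2.85 CPM and KO_S47A 50.8 ± 8.93 CPM. The PCDH7 call is lost without library 1 of KO_WT (adjusted p = 0.0768), without library 2 of KO_WT (0.102) and without library 2 of KO (0.051), while its log2 fold change stays between -1.50 and -1.36 over the 6 fits that leave out 1 library.

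CCDC85A, a coiled-coil protein gene, was at 0.863, 0.612 and 0.729 CPM in KO and at 2.55, 3.25 and 2.40 CPM in KO_WT. These low levels stand for 34 to 42 counts in the KO libraries and 113 to 136 in the KO_WT libraries, and the groups did not overlap. CCDC85A rose by 1.90 (SE 0.21, interval 1.43 to 2.36, edgeR adjusted p = 0.00247), 3.72-fold between the means, and this call too is lost in the fit to the 6 libraries alone (adjusted p = 0.151). Even so it stayed far below the 27.3 ± 6.05 CPM of Scramble (SD, n = 3), with a log2 difference from Scramble of -3.32 in KO_WT and of -5.21 in KO. The other addback lines held 1.39 ± 0.234 CPM (S47A) and 2.41 ± 0.22 CPM (S404A).

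**Figure D1:**
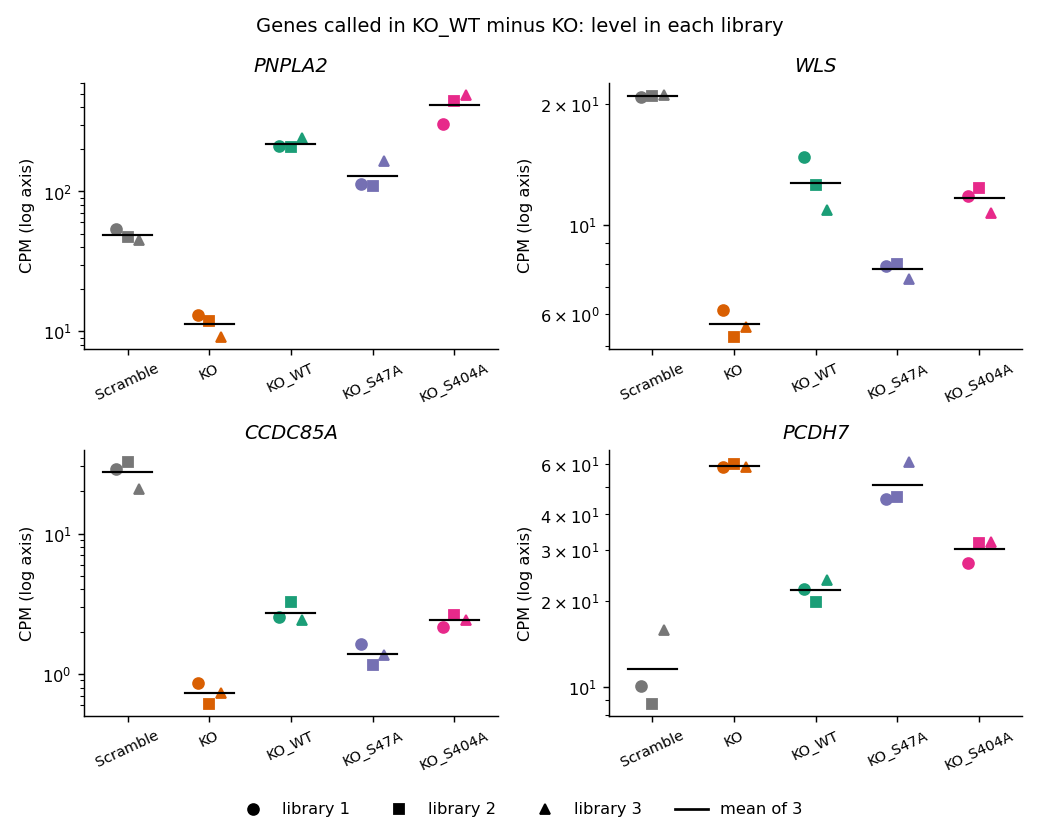
CPM (log axis) of PNPLA2, WLS, CCDC85A and PCDH7 in each of the 15 libraries by line; each symbol is 1 library, its shape gives the library number and the bar is the group mean. In all 4 panels the 3 KO_WT libraries lie apart from the 3 KO libraries, with PNPLA2 at 207 to 241 against 9.11 to 13.0 CPM.

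The DNA just upstream of the start of these 3 genes is shown because fatty acids set free by ATGL are ligands of PPARs, which bind with RXR to direct repeats of AGGTCA spaced by 1 base. Each window is the 250 bases before a RefSeq start on GRCh38.p14, read 5′ to 3′ on the strand of the gene; capitals mark matches to that repeat (DR1: AGGTCA, any base, AGGTCA) with at most 3 mismatches on either strand.
WLS upstream window, chr1:68232524-68232773, minus strand: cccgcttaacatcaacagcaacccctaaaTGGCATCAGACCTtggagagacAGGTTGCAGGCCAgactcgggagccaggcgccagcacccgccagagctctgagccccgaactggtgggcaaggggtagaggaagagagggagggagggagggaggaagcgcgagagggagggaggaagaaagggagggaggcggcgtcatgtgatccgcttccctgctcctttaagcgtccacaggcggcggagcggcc
PCDH7 upstream window, chr4:30720119-30720368, plus strand: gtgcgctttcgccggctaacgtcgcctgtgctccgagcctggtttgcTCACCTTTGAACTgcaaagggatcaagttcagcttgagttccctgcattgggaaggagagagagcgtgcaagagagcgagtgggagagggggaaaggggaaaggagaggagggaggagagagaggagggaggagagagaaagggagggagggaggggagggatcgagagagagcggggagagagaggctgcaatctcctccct
CCDC85A upstream window, chr2:56183740-56183989, plus strand: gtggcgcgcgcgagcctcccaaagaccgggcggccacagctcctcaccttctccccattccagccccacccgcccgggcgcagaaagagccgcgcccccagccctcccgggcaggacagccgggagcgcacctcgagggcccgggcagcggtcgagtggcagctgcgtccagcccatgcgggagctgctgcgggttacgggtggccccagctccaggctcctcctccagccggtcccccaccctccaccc
WLS held 2 such matches with 3 mismatches each and PCDH7 held 1 with 2 mismatches, while the letters were not found in the CCDC85A window. Among 35116 RefSeq promoters of the same length 18.0% held a match, and 12.1% held an exact single AGGTCA on either strand, which is in none of these 3. A match of letters is a description only and says nothing of binding.

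The 4 called genes were 0.0281% of the genes tested, with 3 higher (0.0211%) and 1 lower (0.00702%), and all 4 changed by more than 2-fold. At an unadjusted p under 0.05 there were 502 higher and 578 lower genes, and DESeq2 called 8 genes, 5 higher and 3 lower, which hold all 4. The same model called 383 genes (2.69%) when KO was set against Scramble and 494 (3.47%) when KO_WT was; the first shares the KO libraries and the second the KO_WT libraries with the comparison described here. The 95% interval of the log2 fold change of KO_WT minus KO had a median halfwidth of 0.36. For 10794 of 14245 genes with an interval (75.8%) it lay wholly inside a 2-fold change in either direction, and for 7568 (53.1%) inside 1.5-fold. For the other 3451 genes the interval was not wholly inside a 2-fold change. They include PNPLA2, CCDC85A and PCDH7, whose intervals lay wholly beyond 2-fold. Where the interval held a 2-fold change, a shift of that size was not excluded by 3 libraries per line.

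**Figure D2:**
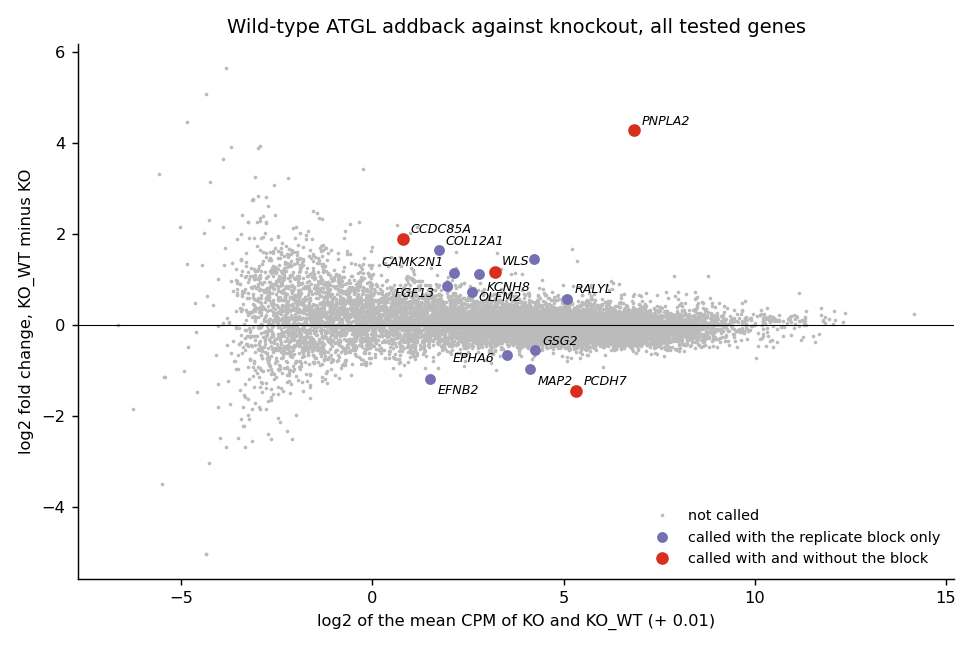
Log2 fold change of KO_WT minus KO against the log2 of the mean CPM of the 6 libraries for every tested gene; red points were called with and without the replicate block, purple points with the block alone, and not all are labelled. PNPLA2 at 4.28 stands clear of all genes of similar level, and the median of all genes is 0.00.

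The library number accounted for part of the spread. Deviations from the group mean were correlated across genes between same-numbered libraries of KO_WT and KO (r = 0.15, 0.12 and 0.39), and with the number as a block the model called 15 genes (0.105%), 10 higher (0.0702%) and 5 lower (0.0351%). All 4 genes above were among them. Each of the other 11 genes missed the threshold in the model of all libraries without the block, at adjusted p from 0.0623 to 0.628. Among them COL12A1, KCNH8, CAMK2N1, MAP2, EFNB2 and GSG2 were also called in the fit to libraries 1 and 2 alone.

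COL12A1, which encodes a collagen that decorates fibrils, was 1.60, 1.60 and 1.63 CPM in KO and 6.01, 4.45 and 4.66 CPM in KO_WT. The groups were apart, at a log2 fold change of 1.64 (adjusted p = 0.000318 with the block and 0.0623 without it), and DESeq2 called it too. Scramble held 61.8 ± 16.7 CPM (SD, n = 3), so KO_WT remained far below the control. KCNH8, a voltage-gated potassium channel gene, was 5.45, 4.27 and 3.44 CPM in KO and 10.1, 9.59 and 8.85 CPM in KO_WT. Again no KO_WT library reached down to a KO library (1.12, adjusted p = 0.000527 with the block and 0.302 without it), and here Scramble was the lowest line, at 2.63 ± 0.387 CPM.

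CAMK2N1, an inhibitor of CaM kinase II, went from 3.47, 3.06 and 1.63 CPM in KO to 7.74, 6.48 and 3.77 CPM in KO_WT. The same-number ratios of 2.23, 2.12 and 2.32 were alike although library 3 was the lowest of both lines (adjusted p = 0.00983 with the block, 0.625 without). Scramble stood at 89.7 ± 42.7 CPM. FGF13, an intracellular regulator of sodium channels, OLFM2, an olfactomedin gene, and RALYL, an RNA-binding protein gene, were higher in KO_WT with the block by smaller amounts, with log2 fold changes of 0.86, 0.73 and 0.58 in the model without it. In these 3 genes the ranges of the 2 groups overlapped, and each same-numbered KO_WT library was above its KO library.

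Among the genes lower in KO_WT with the block, MAP2, a microtubule protein best known from neurons, was 27.7, 26.5 and 15.2 CPM in KO and 11.4, 14.5 and 9.81 CPM in KO_WT (log2 fold change -0.96, adjusted p = 0.0138 with the block, 0.625 without). DESeq2 called it, and so did the fit to libraries 1 and 2. EFNB2, a ligand of Eph receptors, was 3.56, 3.06 and 5.29 CPM in KO and 1.40, 1.03 and 2.79 CPM in KO_WT (-1.18, adjusted p = 0.0138 with the block). Scramble had 16.9 ± 6.61 CPM of EFNB2, so in KO_WT this gene lay further from the control than in KO. EPHA6, an Eph receptor, was 14.8, 15.1 and 11.9 CPM in KO and 10.2, 9.40 and 6.90 CPM in KO_WT (-0.66, adjusted p = 0.0489 with the block). Scramble held 19.1, 18.5 and 16.25 CPM of EPHA6, so this gene too lay further from the control in KO_WT than in KO. GSG2, the former symbol of the mitotic histone kinase haspin, was the smallest of the 15, at -0.55 (adjusted p = 0.0337 with the block), and its ranges overlapped.

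**Figure D3:**
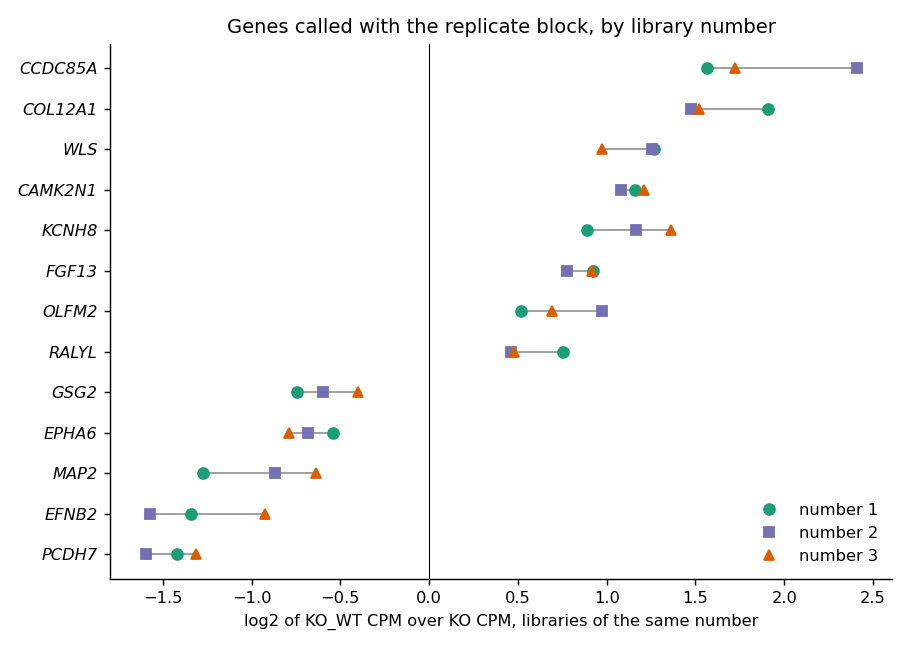
Log2 ratio of KO_WT to KO CPM for libraries of the same number, for 13 of the genes called with the replicate block, PNPLA2 not shown; circles, squares and triangles are numbers 1, 2 and 3, and the grey line spans them. All points of a gene lie on one side of 0, with CCDC85A and COL12A1 farthest to the right and PCDH7 farthest to the left.

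Without library 3 in any line, 43 genes of 14352 were called (0.3%), 30 higher (0.209%) and 13 lower (0.0906%). They held the 4 genes called in all libraries and 11 of the 15 called with the block. Among the others CBLN2, a secreted synaptic organiser of the cerebellin family, was 87.6, 97.5 and 72.4 CPM in KO and 48.40, 49.99 and 37.05 CPM in KO_WT. All KO_WT libraries were below all KO libraries, at -0.93 over all libraries (adjusted p = 0.302), -0.91 in libraries 1 and 2 (0.00227) and 0.0529 as adjusted p with the block, while DESeq2 called it at 0.00343. PHLDA1, a pleckstrin-homology protein gene, was 39.6 to 47.7 CPM in KO and 24.0 to 26.6 CPM in KO_WT (-0.79, adjusted p = 0.625 over all libraries and 0.0387 in libraries 1 and 2). HIST2H2BE, a polyadenylated H2B histone gene now named H2BC21, was 18.0, 15.7 and 14.4 CPM in KO and 35.7, 33.3 and 14.9 CPM in KO_WT. Libraries 1 and 2 gave 1.04 (adjusted p = 0.00563), all libraries 0.80 (0.625), and library 3 was about level in both lines.

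The S47A line carries ATGL without its catalytic serine, so KO_WT minus KO_S47A compares addback of the active and the inactive protein. EdgeR called 0 genes there, with 309 at an unadjusted p under 0.05, while the block gave 3 (0.0211%) and DESeq2 gave the same 3. With the block PCDH7 was lower in KO_WT, by -1.21 (adjusted p = 0.00233 with the block and 0.178 without it). Its KO_S47A libraries held 45.2, 46.1 and 61.1 CPM, all above the 19.9 to 23.7 CPM of KO_WT. WLS was higher in KO_WT by 0.71 with the block (adjusted p = 0.0271 with the block and 0.214 without it), and its KO_S47A libraries, at 7.91, 7.97 and 7.34 CPM, lay below every KO_WT library.

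EPHA6 was the third, lower by -1.002 with the block (adjusted p = 0.00357, and 0.998 without the block). EPHA6 was 19.9, 19.0 and 14.0 CPM in KO_S47A and 19.1, 18.5 and 16.25 CPM in Scramble, so KO_WT lay further from the control than KO_S47A did. CCDC85A was not called between these addbacks by edgeR with or without the block (0.98, interval 0.54 to 1.41, adjusted p = 0.998, and 0.364 with the block). PNPLA2 itself was 129 ± 30.6 CPM in KO_S47A (SD, n = 3) against 220 ± 18.1 in KO_WT, a log2 difference of 0.77 (interval 0.35 to 1.18, adjusted p = 0.998), and the part of this level difference in the other genes was not tested.

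The enzymes and regulators of lipolysis gave 1 call, PNPLA2, among 23 tested of 31 listed genes, and their median log2 fold change was -0.00 beside 0.00 for all genes. The partners of ATGL are named here for their roles and after their values were seen. ABHD5, its activator, differed by -0.01 (adjusted p = 0.971), LIPE by 0.23 (0.728) and MGLL by -0.21 (0.63), none of which passed edgeR's test. The inhibitor HILPDA, listed as C7orf68 in the tables, differed by -0.16 (adjusted p = 0.839), and G0S2 was under the filter on low counts. HSD17B11, a lipid droplet dehydrogenase, was 13.8, 14.7 and 14.1 CPM in KO and 19.2, 17.4 and 14.8 CPM in KO_WT, at 0.27 (adjusted p = 0.625).

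Of 22 tested PPAR and PGC-1 regulators and targets 0 were called by edgeR, with 2 higher and 1 lower at an unadjusted p under 0.05. The list's median was 0.05. PPARA differed by -0.26 (adjusted p = 0.625) and its classical target CPT1A, the entry step of fatty acids into mitochondria, by 0.01 (0.97); both are named for their roles. PPARGC1B, a coactivator of mitochondrial genes, was 7.27, 5.31 and 7.26 CPM in KO and 3.31, 3.68 and 5.53 CPM in KO_WT (-0.66, adjusted p = 0.625, and 0.0944 with the block).

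Fatty acid oxidation had 37 tested genes, of which 0 were called by edgeR and 4 were higher at an unadjusted p under 0.05, or 10.8% beside 3.52% of all genes. SLC25A20, the carnitine-acylcarnitine carrier of the inner mitochondrial membrane, was 15.5, 18.4 and 17.5 CPM in KO and 23.4, 24.5 and 20.6 CPM in KO_WT. The groups did not overlap (0.41, SE 0.12, adjusted p = 0.625, and 0.0944 with the block). DECR2, a peroxisomal enzyme for unsaturated fatty acids, was 24.3, 24.7 and 21.2 CPM in KO and 33.4, 32.1 and 25.7 CPM in KO_WT, also without overlap (0.38, adjusted p = 0.625). Both genes were picked for the lowest p of this list, which favours ranges that lie apart, so the lack of overlap adds no support.

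Fatty acid synthesis had 23 tested genes with a median of -0.14, and 0 were called. At an unadjusted p under 0.05, 4 of them (17.4%) were lower, beside 4.06% of all genes. ACLY, which makes cytosolic acetyl-CoA from citrate, was 644, 572 and 621 CPM in KO and 402, 444 and 571 CPM in KO_WT. No KO_WT library reached the KO range (-0.38, adjusted p = 0.625). SCD, the stearoyl-CoA desaturase, was 1363, 1256 and 1101 CPM in KO and 1027, 1066 and 907 CPM in KO_WT (-0.31, adjusted p = 0.625), again without overlap.

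In the other metabolic lists 0 genes were called with all libraries or with the block. Glycolysis had a median of -0.20 over 31 genes, with 7 of them above 0, and HK2, a hexokinase, was 62.8 to 70.1 CPM in KO and 48.7 to 57.0 CPM in KO_WT (-0.35, adjusted p = 0.625). Medians were 0.03 for triglyceride and phospholipid synthesis, -0.09 for cholesterol synthesis, -0.05 for fatty acid uptake and for the tricarboxylic acid cycle, 0.07 for nuclear respiratory chain subunits and 0.10 for AMPK subunits and kinases. For LPIN1, a phosphatidate phosphatase of the triglyceride list, KO held 70.1, 58.2 and 55.3 CPM and KO_WT 44.0, 46.3 and 57.4 CPM (-0.31, adjusted p = 0.625), with library 3 of KO_WT inside the KO range.

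WLS was the one called gene among 47 tested genes of Wnt secretion, receptors and targets, whose median was -0.11 with 14 above 0. PORCN, the acyltransferase that readies Wnt proteins for WLS, differed by 0.36 (adjusted p = 0.701), and the pathway targets AXIN2 and LEF1 by -0.11 (0.772) and -0.42 (0.632); they are named for their roles after their values were seen. PCDH7 was the one called gene among 10 tested non-clustered protocadherins and related cadherins, where the median was -0.48. By number the median difference of this list was 0.12, -0.75 and -0.21, so its sign was not the same in all pairs. In that list PCDH1, better measured than most at 39.4 CPM in KO_WT, differed by 0.25 (adjusted p = 0.625). COL12A1 was the one gene called, with the block, among 36 tested genes of extracellular matrix, integrins and mesenchymal state, with a median of 0.08.

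STEAP1, a metalloreductase of prostate cells, was 197, 223 and 246 CPM in KO and 348, 314 and 278 CPM in KO_WT. The groups did not overlap, and the difference did not pass the test (0.50, SE 0.16, adjusted p = 0.625). AGR2, a disulfide isomerase of secretory epithelium, was 2.20, 2.43 and 3.87 CPM in KO and 6.84, 4.66 and 5.30 CPM in KO_WT. It was higher in every KO_WT library, at 0.98 (SE 0.31, adjusted p = 0.625 over all libraries and 0.0586 in libraries 1 and 2).

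The 2 lists of cell cycle genes had medians below 0 in libraries 1 and 2 and near 0 in library 3. In DNA replication and G1/S 0 of 50 genes had a log2 fold change above 0, beside 50.6% of all genes, and the median was -0.37. Mitosis and G2/M also had 0 of 50 above 0 and a median of -0.37. By number, the median difference of KO_WT from KO was -0.69, -0.56 and -0.10 for G1/S and -0.70, -0.55 and -0.05 for G2/M. Over all libraries and with the block edgeR called 0 genes of either list, and 0 had an unadjusted p under 0.05 without the block. In libraries 1 and 2 alone it called POLA2 and CLSPN of the G1/S list and AURKB of the G2/M list, all lower. The list means of log2 CPM, each gene centred on all 15 libraries, were low in libraries 1 and 2 of KO_S47A too. For G1/S, libraries 1 to 3 held -0.68, -0.67 and 0.45 in KO_S47A, and -0.53, -0.38 and 0.61 in KO_WT. KO held 0.18, 0.19 and 0.69. For G2/M they held -0.77, -0.75 and 0.44 in KO_S47A, -0.49, -0.34 and 0.63 in KO_WT, and 0.17, 0.19 and 0.69 in KO. KO_S404A held -0.61, -0.13 and 0.70 for G1/S and -0.65, -0.14 and 0.68 for G2/M.

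CLSPN, the replication checkpoint protein claspin, shows the pattern: 36.7, 34.6 and 54.6 CPM in KO and 13.4, 12.8 and 51.5 CPM in KO_WT. Its log2 fold change was -1.45 in libraries 1 and 2 (adjusted p = 0.0455) and -0.70 over all libraries (0.718). POLA2, a subunit of DNA polymerase α, was 40.2, 38.9 and 55.8 CPM in KO and 23.2, 25.2 and 52.1 CPM in KO_WT (-0.71 in libraries 1 and 2, adjusted p = 0.0366). The replicative helicase subunit MCM2 was 315, 295 and 401 CPM in KO and 156, 187 and 342 CPM in KO_WT (-0.56 over all libraries, adjusted p = 0.641, and 0.0633 in libraries 1 and 2). Both lines had their highest level in library 3.

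The ATF4 and amino acid response and the endoplasmic reticulum chaperones had medians above 0. Of 49 tested ATF4 genes 48 were above 0 with a median of 0.44, and of 35 chaperone genes 34 were above 0 with a median of 0.39. The same-number medians were 0.56, 0.50 and 0.03 for the first list and 0.66, 0.47 and 0.03 for the second. Neither list had a gene called over all libraries or with the block. In libraries 1 and 2 the ATF4 list had 3 called genes, GDF15, CHAC1 and PCK2, all higher. List means of log2 CPM, each gene centred on all 15 libraries, were also raised in libraries 1 and 2 of KO_S47A. For ATF4 genes, libraries 1 to 3 held 0.83, 0.86 and -0.53 in KO_S47A, and 0.53, 0.43 and -0.93 in KO_WT. KO held 0.01, -0.13 and -1.01. For chaperones they held 0.73, 0.73 and -0.17 in KO_S47A, 0.27, 0.14 and -0.37 in KO_WT, and -0.39, -0.37 and -0.44 in KO. KO_S404A held 0.74, 0.39 and -1.11 for ATF4 genes and 0.48, -0.16 and -0.48 for chaperones.

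GDF15, a secreted stress cytokine, was 375, 349 and 113 CPM in KO and 880, 716 and 181 CPM in KO_WT (1.14 in libraries 1 and 2, adjusted p = 0.0432; 1.09 over all libraries, 0.637). PCK2, the mitochondrial phosphoenolpyruvate carboxykinase, was 254, 229 and 95.8 CPM in KO and 458, 396 and 107 CPM in KO_WT (0.82 in libraries 1 and 2, adjusted p = 0.0481). DDIT3, the stress transcription factor CHOP, had same-number ratios of 3.19, 2.76 and 1.17 and was not called by edgeR in any of these fits (1.40 over all libraries, adjusted p = 0.632). Library 3 was the lowest of both lines in all 3 genes. Ribosomal protein genes had a small median of 0.13, with 75 of 77 entries above 0 and 0 called. By number their median difference was 0.38, 0.05 and -0.02, so it was largest between the libraries numbered 1.

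**Figure D4:**
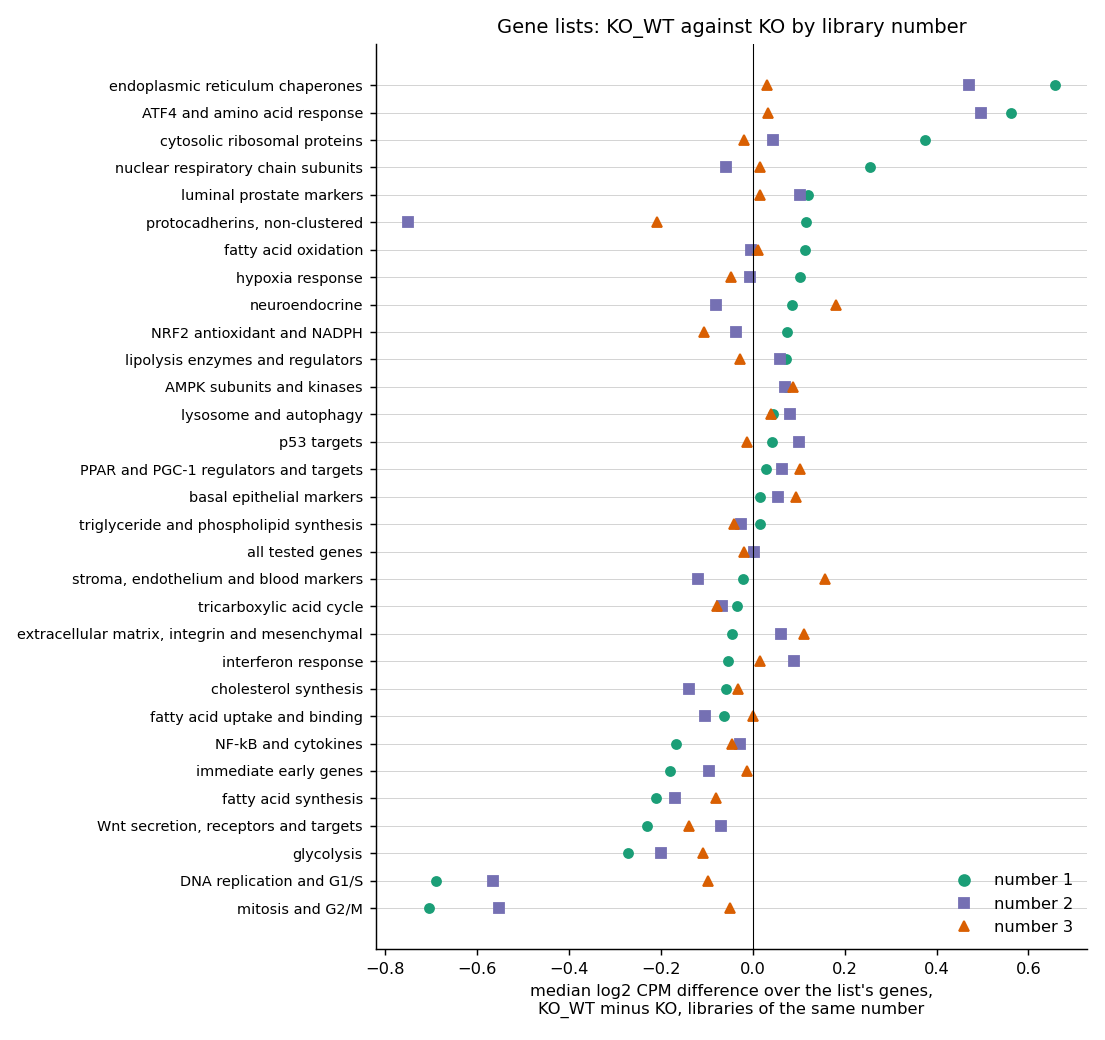
Median over the tested genes of each list of the log2 CPM difference between KO_WT and KO libraries of the same number; circles, squares and triangles are numbers 1, 2 and 3. The cell cycle lists at the bottom and the ATF4 and chaperone lists at the top are far from 0 for numbers 1 and 2 and near 0 for number 3, while most other lists lie within 0.2 of 0 for all 3 numbers.

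The remaining lists had 0 called genes over all libraries and with the block. Their medians were -0.00 for the interferon response, 0.04 for the hypoxia response, 0.05 for lysosome and autophagy, -0.03 for NRF2 targets, 0.08 for p53 targets, -0.03 for immediate early genes, -0.11 for NF-kB and cytokines and 0.16 for neuroendocrine genes.

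The genes that differed most between KO and Scramble give the scale against which the addback can be read; this comparison shares the KO libraries with KO_WT minus KO, so the values stand side by side and no agreement between them is drawn. MAGEA10, a cancer-testis antigen, was 3.92 ± 0.346 CPM in Scramble, 68.3 ± 2.03 in KO and 71.3 ± 2.72 in KO_WT (SD, n = 3). Its KO_WT minus KO difference was 0.06 (SE 0.09, interval -0.13 to 0.25), so a return of even 1.5-fold toward the control lay outside the interval. MAGEA family members share sequence, so the counts of any 1 of them depend on how shared reads were treated. EPHA3, an Eph receptor, was 62.4 ± 6.05, 476 ± 39.7 and 550 ± 87.0 CPM in the same lines (0.21, interval -0.14 to 0.55). GPR133, an adhesion receptor now named ADGRD1, was 2.08 ± 0.429, 12.6 ± 1.90 and 15.9 ± 4.19 CPM (0.33, interval -0.19 to 0.85).

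Of the 5 genes raised most in KO, PCDH7 alone passed edgeR's test as lower in KO_WT, and RALYL was higher in KO_WT with the block. Of the 5 lowered most, CCDC85A passed as higher, and COL12A1 and CAMK2N1 were higher with the block. Of all tested genes, 0.0211% were called higher and 0.00702% lower without the block, and 0.0702% and 0.0351% with it. These genes were picked with the KO libraries that both comparisons share, which by itself favours differences of the opposite sign in KO_WT minus KO. No conclusion is therefore drawn from these counts. SYT4, a synaptotagmin, was 31.9 ± 6.71 CPM in Scramble (SD, n = 3), 0.267, 0.486 and 0.655 CPM in KO and 0.711, 0.885 and 1.53 CPM in KO_WT. The groups did not overlap, but the difference did not pass the test (1.14, SE 0.36, adjusted p = 0.625, and 0.106 with the block). LPL, the lipase that frees fatty acids from circulating lipoproteins, was 11.9 ± 2.99 CPM in Scramble, 0.359 ± 0.115 in KO and 0.379 ± 0.077 in KO_WT. KO_WT and KO overlapped fully in LPL, at 0.08 with a wide interval of -1.19 to 1.34.

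**Figure D5:**
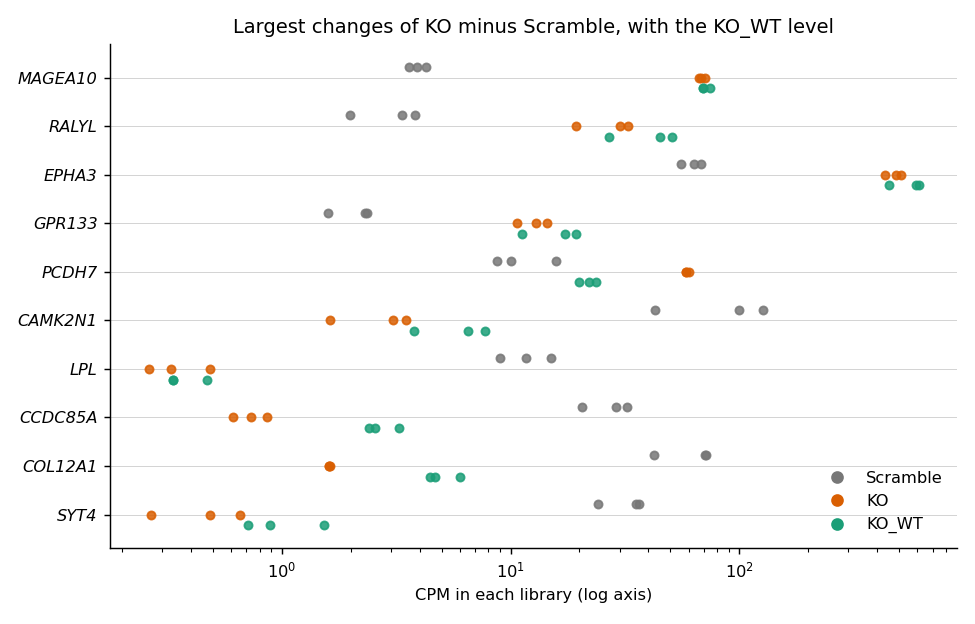
CPM (log axis) in each Scramble, KO and KO_WT library of the 5 genes raised most and the 5 lowered most in KO minus Scramble by the naming rule; each point is 1 library. KO_WT points overlie KO points for MAGEA10, EPHA3, GPR133 and LPL, and lie between KO and Scramble for PCDH7, CCDC85A, COL12A1 and SYT4.

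Luminal prostate markers other than KRT19 were well above the floor in all 6 libraries. Their summed level, KRT19 included, was 6579 to 7469 CPM in KO and 7464 to 7801 CPM in KO_WT, and 0 of 13 were called. KRT19 was near the floor, at 0.04 to 0.23 CPM, and KLK3 alone held 1991 to 3232 CPM of the sum. Of 5 basal markers 3 (KRT5, KRT17 and TP63) were at 0 in all 6 libraries, and the sum was 2.04 to 2.40 CPM in KO and 1.87 to 2.45 CPM in KO_WT. Of 5 neuroendocrine markers NEUROD1 and INSM1 were at 0, with sums of 3.03 to 3.89 and 3.03 to 3.73 CPM. Of 12 markers of stroma, endothelium and blood 6 were at 0, among them PTPRC and CDH5, and the sums were 19.5 to 24.2 CPM in KO and 23.6 to 24.9 CPM in KO_WT. The 10 genes nearest to PNPLA2 in the RefSeq order, 5 on each side, gave 9 tested genes with differences from -0.15 to 0.16 and 0 called.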

How the data were processed

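The authors deposited, for each library, whole-number read counts per gene that were not normalized, and beside them FPKM values, which served here for implied gene lengths alone. The submitters' processing notes name CASAVA and STAR without versions. No source used here gives the genome build, annotation or strand setting, so overlapping and antisense genes cannot be told apart and no coordinates from the tables are printed. Unassigned reads (13.2% to 20.6% of a library) were left out, which left 20806 gene entries, of which filterByExpr kept 14246.

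Counts were fitted in R 4.3.3 with edgeR 4.0.16 (TMM scaling, quasi-likelihood F test, 1 mean per line over all 15 libraries, 10 residual degrees of freedom). P-values were adjusted by Benjamini-Hochberg over all tested genes, and a gene was called at an adjusted p under 0.05. The SE was approximated from the log2 fold change and its F statistic (their ratio after taking the root of F), and intervals were built from it. The script was tested on simulated data. Alternatives were the replicate number as a block, DESeq2 1.42.0, RLE size factors, no filter on low counts, only the 6 libraries, only libraries 1 and 2, and each library left out in turn. Replicate numbers come from the sample titles and were treated as pairs because every same-number correlation of deviations between KO_WT and KO was above 0.1 (0.15, 0.12 and 0.39). Library 1 of KO_WT correlated more with library 2 of KO (0.23) than with library 1. Library 2 of KO_WT likewise correlated slightly more with library 1 of KO (0.134) than with library 2 (0.121). The numbers thus set library 3 apart more than they separate 1 from 2.

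Named genes are PNPLA2, all genes called with or without the block, the 5 higher and 5 lower genes of lowest p in libraries 1 and 2 (at least 5 CPM), the 5 largest in each direction of KO minus Scramble (at least 10 CPM, ranges apart), and from each of 31 gene lists the called members and the 2 of lowest p, from which the text draws examples; some genes under the rule are not reported here. The members and lists were chosen with earlier results of these data known. List members named for their low p were picked on these same libraries, so ranges that do not overlap are no further support for them. Promoter windows are from RefSeq.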

Additional observations from a re-analysis of the deposited data

How the results depend on the processing

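The count of 4 genes called in KO_WT minus KO became 15 with the replicate block, 8 in DESeq2 (5 higher and 3 lower, against 3 and 1), 2 with only the 6 libraries of both lines, where CCDC85A (adjusted p = 0.151) and WLS (0.107) were lost, and 43 with libraries 1 and 2 only. It stayed at 4 with RLE size factors, was 5 without a filter, and ran from 3 to 5 when 1 library was left out. For KO_WT minus KO_S47A the 0 genes became 3 with the replicate block, 3 in DESeq2 and 2 with libraries 1 and 2 only, and stayed at 0 in the other fits, each library left out included. The direction of LPL turned to -0.29 with libraries 1 and 2 only, to -0.10 without library 3 of KO_WT and to -0.11 without library 3 of KO; the cause was not tested. Of 1019 values of named genes in KO_WT minus KO under the alternatives, these 3 turned sign, 5 lost and 33 gained a call, and of 372 list medians 20 moved by more than the spread between libraries. The median of all genes stayed between 0.00 and 0.02. With 3 libraries per line, differences under about the median halfwidth of 0.36 on the log2 scale were mostly not resolved, and low genes such as LPL less so.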

Other observations

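Of the 43 genes called in libraries 1 and 2 alone, 4 with a known place in lipid, steroid or glucose biology have not been described above. They were chosen after their values were seen, and none passed edgeR's test over all libraries. TSC22D3, a gene induced by glucocorticoids, was 82.0 and 77.0 CPM in KO libraries 1 and 2 and 169 and 145 CPM in KO_WT libraries 1 and 2 (log2 fold change 0.98, adjusted p = 0.0384 in those libraries, 0.697 over all). In library 3 it was 24.0 CPM in KO and 26.8 CPM in KO_WT, below all others. SLC2A12, a glucose transporter, was 23.2, 22.1 and 18.8 CPM in KO and 38.5, 34.9 and 24.3 CPM in KO_WT (0.70, adjusted p = 0.0432 in libraries 1 and 2, 0.625 over all), and the groups did not overlap. ALDH1A3, which makes retinoic acid, was 43.52, 39.98 and 26.69 CPM in KO and 63.0, 58.9 and 35.8 CPM in KO_WT (0.55, adjusted p = 0.0481 in libraries 1 and 2, 0.628 over all). LPAR3, a receptor of lysophosphatidic acid, was 42.3, 39.6 and 36.3 CPM in KO and 62.4, 63.3 and 37.7 CPM in KO_WT (0.62, adjusted p = 0.04998 in libraries 1 and 2, 0.625 over all). In these genes each KO_WT library was above the KO library of its number, and library 3 was the lowest of both lines.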
